A study of Homo sapiens with 6 samples.

Results

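The 10 genes described here are the 5 NF-κB subunits (NFKB1, NFKB2, REL, RELA and RELB), the canonical-arm inhibitors NFKBIA and TNFAIP3, and the noncanonical-arm regulators TRAF3, BIRC3 and MAP3K14. They were taken by symbol, and no measured value entered the rule, although earlier results of these data were known when the symbols were chosen. All 10 were found among the 21850 genes of the count table, and all 10 were among the 13971 genes tested. RNA was sequenced from MM.1S, a human multiple myeloma cell line, collected on day 3 after lentiviral transduction. The shNT group (3 libraries) was labelled wild type and carried a scramble hairpin. The shPRKCN group (3 libraries) carried a hairpin against PRKCN, the protein kinase D family member now named PRKD3. Cells of both groups therefore carried a lentiviral hairpin vector, and both groups came from 1 cell line. All 3 shPRKCN libraries bear the same hairpin designation, so loss of PRKCN and other effects of that hairpin cannot be told apart. The labels do not say that the libraries of a group came from separate cultures, and the p-values then measure only the spread between these libraries.

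NF-κB proteins bind DNA as dimers. In the canonical arm, the IκB kinase (IKK) complex marks IκB proteins such as NFKBIA for destruction and so frees dimers of RELA or REL with the processed NFKB1 product. In the noncanonical arm, TRAF3 holds the kinase encoded by MAP3K14 (NIK) next to the ubiquitin ligases encoded by BIRC2 and BIRC3, which keep NIK low; when that brake is lifted, NIK drives the processing of the NFKB2 precursor, whose product pairs with RELB. Both arms are known to be active in many myelomas through lesions in these regulators, and several of the genes, among them NFKBIA, TNFAIP3, BIRC3, NFKB2 and RELB, are textbook NF-κB targets themselves. The comparison here concerns the mRNA of the NF-κB machinery when PRKCN was depleted, and it does not measure NF-κB protein, its processing or its activity.

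Depth differed little between the groups. The shNT libraries held between 35625564 and 37730003 counts and the shPRKCN libraries between 36913919 and 37478529. The targeted gene PRKD3 had 44913, 47712 and 45531 counts in shNT against 19979, 18253 and 19998 in shPRKCN libraries, a log2 fold change of −1.29 (SE 0.034, adjusted p = 8.2e-43), in the direction the labels give. Its paralog PRKD2 stood at −0.19 (adjusted p = 5.2e-05). The other paralog, PRKD1, was at −0.30 (adjusted p = 0.045) on 190 to 279 counts, and its groups overlapped. The summed level of 10 plasma cell markers was 9310 to 9453 CPM (counts scaled to a common library size) in shNT and 8013 to 8296 CPM in shPRKCN libraries, and at a Benjamini-Hochberg adjusted p under 0.05 (edgeR, over all tested genes) 7 of the 10 fell and 1 rose, where 27.8% of all tested genes were lower and 26.5% higher. JCHAIN, the immunoglobulin joining chain and the most abundant of them per length, was at 0.01 (adjusted p = 0.71), while IRF4 (−1.85), XBP1 (−1.28), TNFRSF17 (−1.13) and SLAMF7 (−0.97) also lay beyond a log2 fold change of 0.58. Summed levels of the 3 listed B cell markers were 0.0812 to 0.265 CPM in shNT and 0.107 to 0.217 CPM in shPRKCN, led by the B cell antigen MS4A1, which had at most 8 counts in any library. The 3 listed monocyte markers summed to 0.0795 to 0.298 and 0.187 to 0.267 CPM, and the most abundant, CD14, had at most 9 counts. The 3 listed stromal markers summed to 0.814 to 1.46 and 0.481 to 0.720 CPM, nearly all from PDGFRB (−1.07, adjusted p = 0.013, 15 to 50 counts). Without shNT replicate 3 PDGFRB was at −0.83 (adjusted p = 0.12), and without shPRKCN replicate 2 at −0.95 (adjusted p = 0.058). The 4 T cell markers summed to 10.6 to 11.9 and 27.9 to 31.1 CPM. That sum was nearly all CD3E (1.40, adjusted p = 7.5e-26), a subunit of the T cell receptor complex, with CD3D and CD3G at 0 or 1 counts in every library. In RNA of a whole culture, fewer cells of a kind and less RNA per cell cannot be told apart.

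Sequence at the start sites was searched for the κB motif, the DNA letters that NF-κB dimers bind, because several of the 10 genes are NF-κB targets themselves. RefSeq start-site windows on GRCh38.p14, from 250 bases before to 50 bases after each annotated start, were used for 9 of the 10 genes, all but RELB (13 windows). The κB consensus was searched on both strands, and overlapping matches are counted here as 1. At least 1 window held the consensus in 7 of the 9 genes. Over all 35116 windows 11.3% held a match, and over all 27305 genes 13.3% had at least 1 such window. The whole window of BIRC3 and stretches of 60 bases around matches in 5 other genes are given, 5′ to 3′ on the strand of the gene, with the matched letters in capitals. They are shown because BIRC3, TRAF3 and NFKB1 passed the p limit described later, while NFKB2, NFKBIA and TNFAIP3 did not.

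BIRC3 (chr11:102317234-102317533, plus strand): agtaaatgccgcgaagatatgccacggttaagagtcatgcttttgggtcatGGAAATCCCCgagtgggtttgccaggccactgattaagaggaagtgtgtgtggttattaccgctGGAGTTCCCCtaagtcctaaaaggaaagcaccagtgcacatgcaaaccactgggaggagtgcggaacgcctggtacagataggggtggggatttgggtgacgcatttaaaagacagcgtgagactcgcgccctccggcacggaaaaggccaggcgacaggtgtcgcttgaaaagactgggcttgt
TRAF3 (chr14:102777391-102777450, plus strand): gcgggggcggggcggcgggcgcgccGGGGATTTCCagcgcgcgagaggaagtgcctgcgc
NFKB1 (chr4:102501285-102501344, plus strand): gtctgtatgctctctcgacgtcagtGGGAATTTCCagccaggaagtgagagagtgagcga
NFKB2 (chr10:102395659-102395718, plus strand): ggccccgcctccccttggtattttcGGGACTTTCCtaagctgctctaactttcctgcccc
NFKBIA (chr14:35404796-35404855, minus strand): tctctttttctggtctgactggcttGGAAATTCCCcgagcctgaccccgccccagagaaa
TNFAIP3 (chr6:137867167-137867226, plus strand): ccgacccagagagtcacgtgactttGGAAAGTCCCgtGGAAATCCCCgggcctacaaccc

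The BIRC3 window held a pair of matches, 199 to 190 and 135 to 126 bases before the start. In TNFAIP3 a pair of matches lay 67 to 58 and 55 to 46 bases before the start. The TNFAIP3 window (chr6:137867009-137867308) lies wholly inside the RefSeq span of the gene, which begins at 137866349. Single matches lay 33 to 24 bases before the start in TRAF3, 49 to 40 in NFKB1 and 81 to 72 in NFKBIA. NFKB2 has 3 annotated starts and 4 matches, the most of these genes. A pair lay 107 to 97 and 78 to 69 bases before its middle start, and another pair 176 to 167 and 21 to 12 bases before the start farthest downstream, of which the nearer is printed. Both of these windows lie wholly inside the RefSeq span of NFKB2, which begins at 102394110. REL had a match 47 to 37 bases before its start. Matches were not found in the windows of RELA and MAP3K14, which says only that these letters are not in those windows. A match is a run of letters and not a measured binding site.

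**Figure D1:**
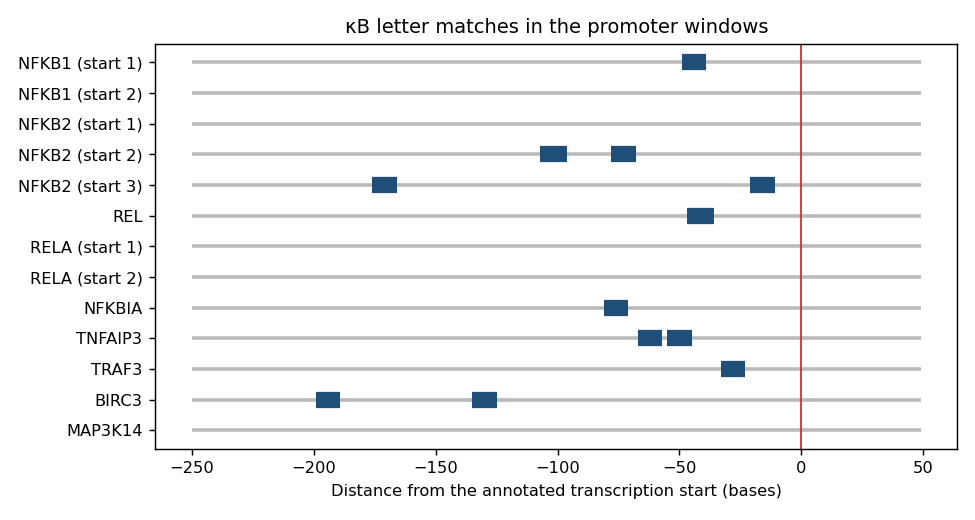
Positions of κB consensus matches (blue) in the RefSeq start-site windows (grey lines) of 9 genes, in bases from the annotated transcription start (red line), with 1 row per annotated start. All matches lay before the start, between 199 and 12 bases from it, and the RELA and MAP3K14 windows had none.

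In shNT cells the levels of the 10 genes differed widely. On the FPKM scale, which divides by gene length and so allows genes to be compared, TNFAIP3 was highest at 55.1 ± 1.11 (SD, n = 3). The lengths implied by counts and FPKM ran from 1559 bases for NFKBIA to 11393 for REL, with 8616 for TNFAIP3. Comparisons between genes, and the subunit shares below, depend on these lengths, whose annotation is not given. TNFAIP3 encodes the ubiquitin-editing enzyme A20, a feedback inhibitor of the canonical arm. RELA followed at 43.3 ± 1.34 FPKM and NFKB2 at 42.8 ± 0.27 FPKM, and these neighbours overlapped between libraries. BIRC3 was at 20.3 ± 0.34, NFKBIA at 17.4 ± 0.75 and NFKB1 at 15.5 ± 1.37 FPKM, of which NFKBIA and NFKB1 overlapped. RELB was at 12.6 ± 0.64, MAP3K14 at 9.11 ± 0.41 and TRAF3 at 4.80 ± 0.23 FPKM. REL, which encodes the c-Rel subunit prominent in lymphocytes, was lowest at 0.787 ± 0.085 FPKM. In shPRKCN libraries the order of the group means changed in the middle of the list, where NFKB1 (17.4 ± 0.31 FPKM), NFKBIA (17.0 ± 0.58 FPKM) and BIRC3 (16.3 ± 0.78 FPKM) lay close together, and neither BIRC3 and NFKBIA nor NFKBIA and NFKB1 were separated in every library. RELB (10.2 ± 0.81 FPKM) and MAP3K14 (10.6 ± 0.37 FPKM) also changed places there and overlapped.

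**Figure D2:**
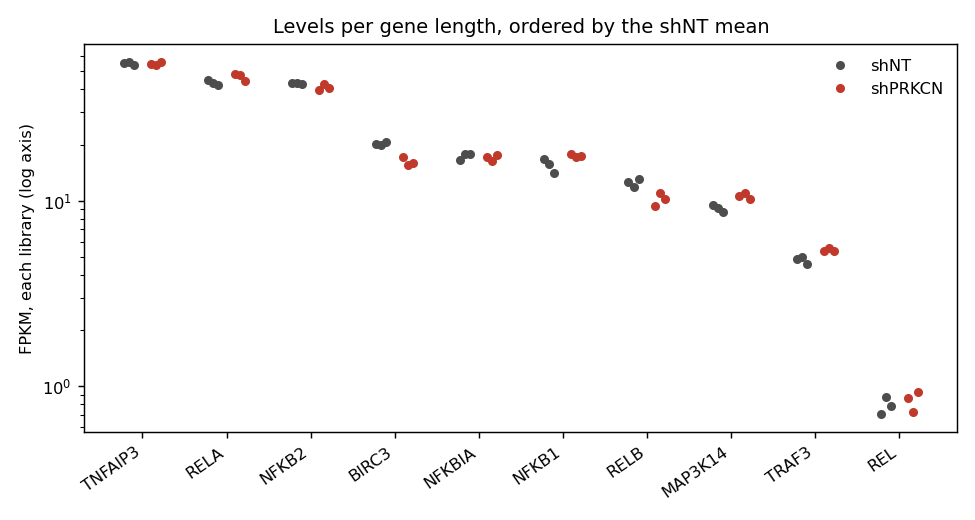
FPKM of the 10 genes in each of the 6 libraries on a log axis, ordered by the shNT mean (grey, shNT; red, shPRKCN; 3 points each). TNFAIP3 lies near 55.1 FPKM and REL near 0.787 FPKM, and the shPRKCN points of BIRC3 and RELB lie below all their shNT points.

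After PRKCN knockdown the 10 genes moved little. NFKB1, TRAF3 and MAP3K14 were higher and RELB and BIRC3 were lower at a Benjamini-Hochberg adjusted p under 0.05 over all tested genes. BIRC3 and RELB changed most among the 10, to 79.1% and 79.6% of the shNT mean. Their order was not stable when single libraries were left out, for example without shPRKCN replicate 2. A gene was called at that p together with a log2 fold change beyond 0.58, the limits the study used, and by edgeR's quasi-likelihood test 0 of the 10 genes were called, where 6.15% of tested genes were called higher and 10.6% lower. At an unadjusted p under 0.05, 7 of the 10 passed in edgeR, none of them beyond the fold limit. DESeq2 also called 0, with 5 genes at an adjusted p under 0.05 and 7 at an unadjusted p under 0.05. No share of all genes is given for the unadjusted limit or for DESeq2. Those counts are therefore not read as a result about the 10. In edgeR 54.2% of all tested genes passed the adjusted limit in either direction. Without the fold limit, 3 of 10 were higher against 26.5% of tested genes, and 2 of 10 were lower against 27.8%. In the same 3 and 2 genes the libraries of the groups did not overlap, against 29.0% of tested genes higher and 29.8% lower in every library. These shares are near the background, so the number of genes that moved is not a result about these 10. Their median log2 fold change was 0.02 and that of all tested genes 0.00. The median size of the change regardless of sign was 0.12 for the 10 genes and 0.25 for all tested genes, of which 79.8% lay within the fold limit. These medians are not matched for level. The 10 genes had means from 343 (REL) to 17542 (TNFAIP3) counts per library, whereas all tested genes include ones of few counts, whose changes are less precise.

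**Figure D3:**
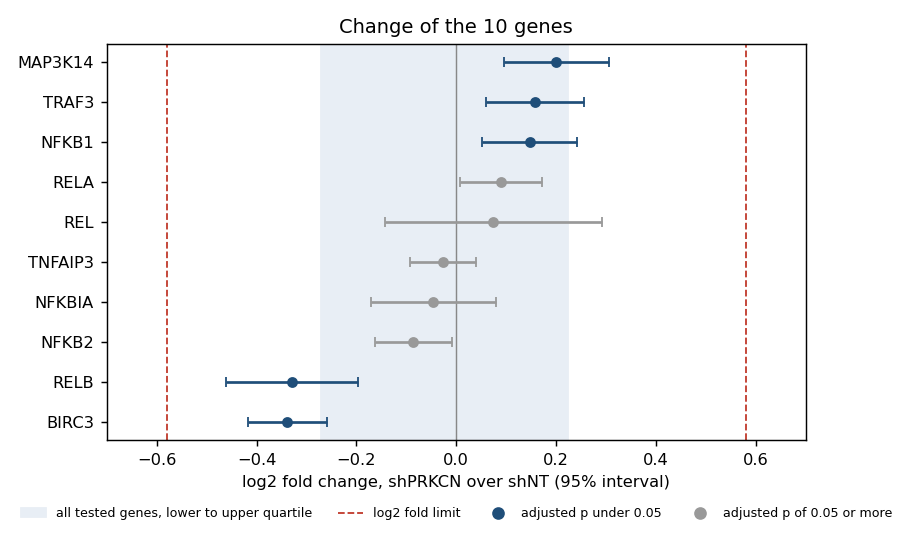
Log2 fold change (shPRKCN over shNT) of each gene with its 95% interval from edgeR. Blue marks an adjusted p under 0.05, the band runs from the lower to the upper quartile of all tested genes (−0.27 to 0.22) and the dashed lines are the fold limit at 0.58 in either direction. BIRC3 (−0.34) and RELB (−0.33) lie below the band and all 10 intervals lie inside the limits.

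Among the subunits, NFKB1 and RELB changed and the other 3 did not pass the test. RELB encodes the partner of the processed NFKB2 product in the noncanonical dimer and lies on chr19:45001464-45038192. Its levels in CPM on TMM-scaled library sizes were 29.1, 27.2 and 30.2 in shNT and 21.0, 25.1 and 22.8 in shPRKCN libraries. Every shPRKCN library was below every shNT library, with group means of 28.8 ± 1.50 and 23.0 ± 2.04 CPM (SD, n = 3 each). Its log2 fold change was −0.33 (SE 0.066, 95% interval −0.46 to −0.20, adjusted p = 2.1e-05), and RELB stayed past the p limit under each alternative run.

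NFKB1 encodes the precursor of the DNA-binding partner of RELA and lies on chr4:102501359-102617302. It had 75.8, 70.4 and 63.5 CPM in shNT libraries and 78.5, 77.2 and 76.5 CPM in shPRKCN libraries. The groups did not overlap, but the shNT libraries were spread over 6.20 CPM (SD) and the shPRKCN libraries over 1.04 CPM, and the highest shNT library lay close to the lowest shPRKCN library. The log2 fold change was 0.15 (SE 0.048, 95% interval 0.05 to 0.24, adjusted p = 0.0071). Without shNT replicate 3, the lowest library, it was 0.08 (adjusted p = 0.16). Limma gave 0.16 (adjusted p = 0.11) on log2(FPKM + 1) and 0.17 (adjusted p = 0.094) on log2(FPKM + 0.1), so the change was as large there but the p limit was not met.

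NFKB2 encodes the precursor that the noncanonical arm processes, and lies on chr10:102394110-102402529. It had 163, 163 and 162 CPM in shNT and 147, 162 and 151 CPM in shPRKCN libraries. The second shPRKCN library lay at the shNT level and the other two lay below it, so the groups were not separated. The log2 fold change was −0.09 (SE 0.038, adjusted p = 0.052), and without shPRKCN replicate 2 it was −0.13 (adjusted p = 0.0038).

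RELA encodes p65, the main activating subunit of the canonical dimer, and lies on chr11:65653601-65663857. It had 115, 111 and 108 CPM in shNT and 122, 122 and 111 CPM in shPRKCN libraries. The third shPRKCN library lay among the shNT libraries. The log2 fold change was 0.09 (SE 0.041, adjusted p = 0.060), and it passed the p limit without shNT replicate 1 (0.11, adjusted p = 0.045), without shPRKCN replicate 3 (0.14, adjusted p = 0.0091) and under 3 other settings.

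REL lies on chr2:60881574-60931612. It had 8.10, 10.01 and 8.97 CPM in shNT and 9.72, 8.34 and 10.5 CPM in shPRKCN libraries, and the groups overlapped. Its log2 fold change was 0.07 with a wide interval (95% interval −0.14 to 0.29, adjusted p = 0.59), on 286 to 397 counts per library. REL levels are uncertain for a further reason: in GENCODE release 29, 42.8% of the 50-base stretches of its transcripts also occur in AC010733.2. That gene lies on the same strand, shares 5702 exonic bases with REL and is not among the counted genes. Whether the annotation used for counting held it is not known.

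The subunits can also be read as a mixture. In FPKM summed over the 5 subunits, which ran from 112 to 119 across the 6 libraries, RELA held 37.6% ± 0.31 in shNT and 40.2% ± 1.46 in shPRKCN libraries. NFKB2 held 37.2% ± 0.69 and 35.2% ± 1.09, NFKB1 13.5% ± 0.89 and 15.1% ± 0.54, RELB 10.96% ± 0.68 and 8.76% ± 0.60, and REL 0.685% ± 0.082 and 0.727% ± 0.107 (SD, n = 3 each). The shares of all but REL were separated between the groups, with RELA and NFKB1 larger and NFKB2 and RELB smaller in shPRKCN libraries. Shares of a common total do not move independently, and in CPM the groups overlapped for both RELA and NFKB2. Within libraries, the FPKM ratio of RELB to RELA was 0.284, 0.275 and 0.314 in shNT against 0.193, 0.231 and 0.231 in shPRKCN, and that of NFKB2 to NFKB1 was 2.55, 2.74 and 3.01 against 2.21, 2.48 and 2.33. The shares and the ratios have no test, and the ratios were chosen after the values had been seen.

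The inhibitors did not pass the test. NFKBIA encodes IκBα, which holds canonical dimers in the cytoplasm, and lies on chr14:35401513-35404749. It had 25.9, 27.8 and 28.0 CPM in shNT and 26.3, 25.8 and 27.1 CPM in shPRKCN libraries, and the groups overlapped. The log2 fold change was −0.05 (95% interval −0.17 to 0.08, adjusted p = 0.56). TNFAIP3 lies on chr6:137866349-137883312 and had 480, 486 and 468 CPM in shNT and 464, 468 and 478 CPM in shPRKCN libraries. The groups overlapped here too, and at this depth the log2 fold change of −0.03 had a narrow interval (95% interval −0.09 to 0.04, adjusted p = 0.53). The start-site windows of both genes hold the κB matches printed above. Matches also lie in windows of BIRC3, which fell, of TRAF3 and NFKB1, which rose, and of NFKB2 and REL, which did not pass the p limit.

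**Figure D4:**
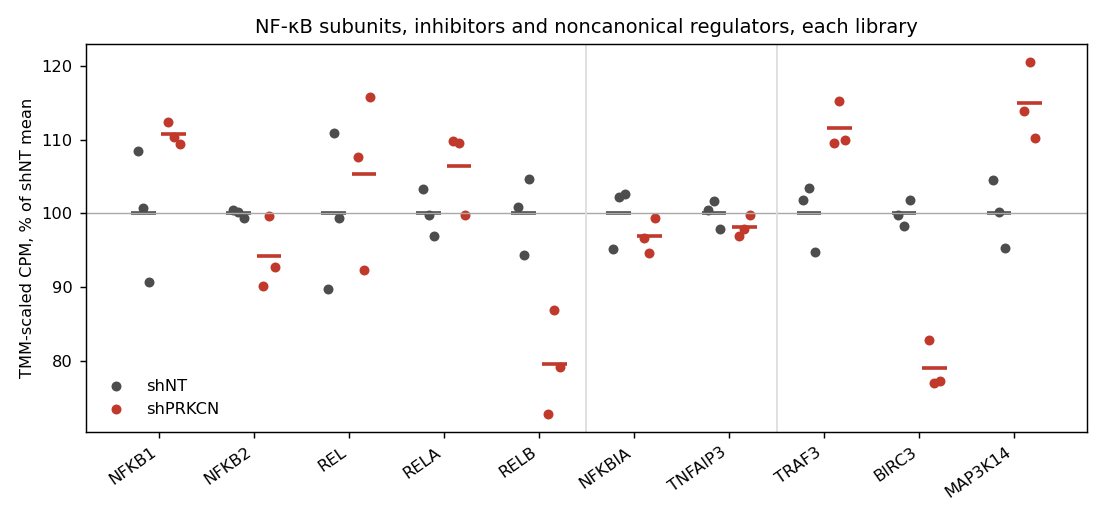
TMM-scaled CPM of each gene in each library as a percentage of its shNT mean (grey, shNT; red, shPRKCN; 3 points each), with short bars at the group means. The shPRKCN means of RELB and BIRC3 lie at 79.6% and 79.1%, those of TRAF3 and MAP3K14 at 112% and 115%, and the points of NFKBIA, TNFAIP3 and REL overlap between groups.

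Of the noncanonical regulators BIRC3 was lower and TRAF3 and MAP3K14 were higher at the p limit. That is 3 of 3, where 54.2% of all tested genes passed it in either direction. BIRC3 encodes the ubiquitin ligase c-IAP2, which acts in the complex that degrades NIK, and lies on chr11:102317484-102339403. It had 143, 140 and 146 CPM in shNT and 118, 110 and 110 CPM in shPRKCN libraries. The gap between the groups was several times the spread within them, with means of 142.8 ± 2.56 and 113.0 ± 4.73 CPM (SD, n = 3 each). BIRC3 had a log2 fold change of −0.34 (SE 0.039, 95% interval −0.42 to −0.26, adjusted p = 2.3e-11), which ranged from −0.37 to −0.31 when each library was left out in turn. Its near neighbour BIRC2, which encodes the related ligase c-IAP1, was at 0.01 (SE 0.047, adjusted p = 0.93), and the FPKM ratio of BIRC3 to BIRC2 was 1.18, 1.10 and 1.15 in shNT against 0.951, 0.952 and 0.809 in shPRKCN libraries. Of 7648 stretches of 50 bases in BIRC3 transcripts, 11 also occur in BIRC2.

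TRAF3 encodes the adaptor that brings NIK to those ligases and lies on chr14:102777449-102911500. It had 52.8, 53.7 and 49.2 CPM in shNT and 56.8, 59.8 and 57.1 CPM in shPRKCN libraries. Every shPRKCN library was above every shNT library. The log2 fold change was 0.16 (SE 0.049, 95% interval 0.06 to 0.26, adjusted p = 0.0051), and without shNT replicate 3 it was 0.12 (adjusted p = 0.0535).

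MAP3K14 lies on chr17:45263119-45317020 and encodes NIK, the kinase at the head of the noncanonical arm. It had 44.3, 42.5 and 40.4 CPM in shNT and 48.3, 51.1 and 46.8 CPM in shPRKCN libraries. The groups were separated, with means of 42.4 ± 1.94 and 48.7 ± 2.21 CPM. MAP3K14 thus had a log2 fold change of 0.20 (SE 0.053, 95% interval 0.10 to 0.31, adjusted p = 0.00086). The antisense gene MAP3K14-AS1 overlaps 713 of its exonic bases, with 106 to 179 counts per library (log2 fold change 0.23, adjusted p = 0.27, and 0.41 with adjusted p = 0.047 without shPRKCN replicate 1), and because the use of strand in counting is not known, reads in the shared bases cannot be told apart. The FPKM ratio of MAP3K14 to TRAF3 overlapped between the groups, at 1.90 ± 0.056 and 1.95 ± 0.045. For a single gene, an exact 2-sided permutation test over the 6 libraries cannot give a p below 0.1, and it gave 0.1 for each of NFKB1, RELB, TRAF3, BIRC3 and MAP3K14.

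The rest of the pathway changed in both directions. Of 49 other pathway genes, 47 were tested, and 11 rose and 16 fell at the adjusted p limit, and their median change was −0.07 on the log2 scale, or 0.25 regardless of sign. These counts stand beside the same 26.5% and 27.8% of all tested genes. With the fold limit, LTB was called higher and NFKBIZ, TNFRSF17 and TNFRSF11A lower. In the IKK complex, the catalytic subunit IKBKB rose by 0.22 (adjusted p = 0.00018), the scaffold IKBKG was at −0.44 (adjusted p = 0.0034) and CHUK, which the noncanonical arm uses, was at −0.12 (adjusted p = 0.13). Without shNT replicate 2 IKBKG was at −0.24 (adjusted p = 0.17), and it also has a near-identical pseudogene copy, so its count is uncertain. CHUK was at −0.20 (adjusted p = 0.016) without shPRKCN replicate 1. Among 6 other IκB proteins and nuclear repressors, 2 fell: NFKBIZ, a nuclear IκB protein and NF-κB target, by 0.76 on the log2 scale (adjusted p = 2.9e-07), and NKRF, a repressor, by 0.29 (adjusted p = 2.3e-06).

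Of 10 further degraders, deubiquitinases and their adaptors, 1 rose and 5 fell, all within the fold limit. Over all tested genes 26.5% rose and 27.8% fell at the same p limit. ITCH fell most, by 0.51 on the log2 scale (adjusted p = 6.6e-16), and CYLD fell by 0.37 (adjusted p = 6.0e-13). TNIP1, which works with A20, fell by 0.40 on the log2 scale (adjusted p = 1.2e-15). TAX1BP1, an A20 adaptor, was at −0.13 (adjusted p = 0.012), at −0.08 (adjusted p = 0.17) without shNT replicate 2 and at −0.10 (adjusted p = 0.063) without shPRKCN replicate 2. It had the highest FPKM of these genes over all 6 libraries, but not in shNT, where TNIP1 was higher. TRAF2, which bridges TRAF3 and the c-IAP ligases, was at −0.02 (adjusted p = 0.75). Of 17 upstream adaptors and ubiquitin ligases, 7 rose and 5 fell, again within the fold limit. The same 26.5% and 27.8% of all tested genes apply here. MALT1 fell by 0.50 on the log2 scale (adjusted p = 2.0e-16). MYD88 had 25.3, 24.0 and 24.9 CPM in shNT and 34.2, 32.8 and 33.4 CPM in shPRKCN libraries. IRAK1, a kinase of Toll-like receptor signaling and the most abundant of these, rose by 0.14 (adjusted p = 0.00055).

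Of 13 receptors and ligands, 11 were tested, 2 rose and 3 fell, against 26.5% and 27.8% of all tested genes. TNFRSF13B, the receptor TACI, fell from a mean of 135.6 to 101.7 FPKM (log2 fold change −0.44, adjusted p = 9.1e-16). It led these genes in FPKM over all 6 libraries, but in shNT TNFRSF17 was higher, at 153.2 FPKM. For TNFRSF17, the plasma cell receptor BCMA, the mean fell from 137.5 ± 3.40 to 62.9 ± 2.06 CPM (log2 fold change −1.13, adjusted p = 1.3e-34). LTB, a lymphotoxin subunit that signals through the noncanonical arm, rose by 1.02 (SE 0.292, adjusted p = 0.0023) from a level of 0.819 ± 0.121 CPM. TNFRSF11A, the receptor RANK, was at −0.78 (adjusted p = 0.030) from 1.41 ± 0.445 CPM, and lost that call under several settings, with an adjusted p of 0.23 without shNT replicate 1 and 0.062 in DESeq2. LTBR and TNF did not pass the filter on low counts.

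A list of 6 further genes was written by hand from indices of NF-κB activity in myeloma, and is not the study's own index. At the adjusted p limit 1 of them rose and 3 fell, where 26.5% of all tested genes were higher and 27.8% lower. CD74, the invariant chain of class II antigen presentation and the most abundant of these, fell by 0.41 (adjusted p = 1.9e-18), and IL2RG, the shared cytokine receptor chain, was higher by 0.24 (adjusted p = 6.3e-09). IL2RG, a target in the next list as well, was the highest of those targets in FPKM over all 6 libraries, whereas in shNT CCL3 was higher (485.6 against 431.8 FPKM).

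Genes usually listed as NF-κB targets, other than the 10, reached larger changes in both directions. Of 45 in the list, some of which are also in the pathway lists above, 42 were in the table and 36 were tested, and 9 rose, 17 fell and 10 did not pass the p limit, against 26.5% of all tested genes higher and 27.8% lower. The median of the 36 was −0.23 on the log2 scale. With the fold limit, 3 were called in the higher direction and 11 in the lower, against 6.15% and 10.6% of all tested genes. The chemokine genes CCL3 (−2.23, from 381 ± 20.0 to 81.3 ± 0.37 CPM), CCL4 (−1.81) and CCL5 (−0.90) fell, and CCL3 and CCL4 have near-identical copies that make their counts uncertain. IRF4, the plasma cell transcription factor the study centres on, fell by 1.85, from 624.3 ± 12.5 to 173.1 ± 3.19 CPM. RGS1, a regulator of G-protein signaling, fell by 1.54, CCND2, a cyclin of early cell cycle, by 0.65 and GADD45B, a stress-response gene, by 0.68. IER3 (−1.40), PLAUR (−1.27) and SDC4 (−0.78) fell from levels of 1.45, 2.28 and 3.96 CPM, and NFKBIZ, described above, was the remaining target called lower. ICAM1, an adhesion molecule (0.68, from 40.9 ± 1.60 to 65.5 ± 4.54 CPM), and IL10, a cytokine gene (0.79, from 2.90 ± 0.61 CPM), rose, as did LTB. Many of these genes are also known targets of other factors, and IRF4 and TNFRSF17 are plasma cell markers too; how far the lower plasma cell markers bear on these lists was not tested.

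**Figure D5:**
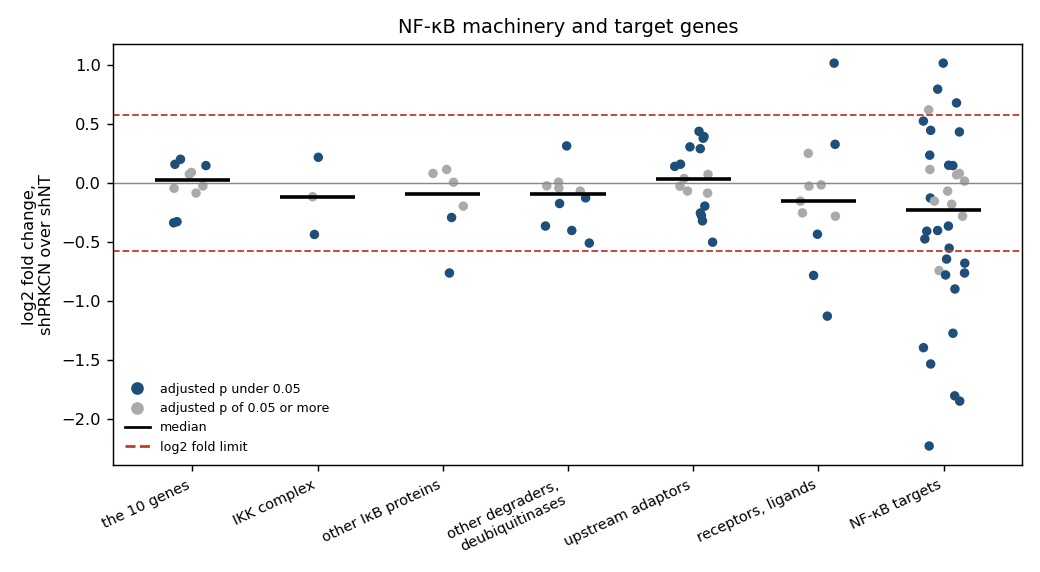
Log2 fold change of each tested gene of the 10, of the other pathway lists and of NF-κB targets (blue, adjusted p under 0.05; grey, others), with black bars at list medians and dashed lines at the fold limit of 0.58. The 10 genes lie between −0.34 and 0.20, whereas targets reach from −2.23 to 1.02.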

How the data were processed

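RNA of 3 shNT and 3 shPRKCN libraries was measured by RNA-seq, and the labels gave each library's group and replicate number. The authors deposited raw read counts for 21850 genes in each library and FPKM values for the same genes, which scale those counts by library total and gene length. The submitters' processing notes name FastQC, HISAT2, StringTie and GRCh38.p14 without versions; the annotation and the use of strand are not given in the sources used here. Per its methods, the study used DESeq2 and kept genes whose q-value was under 0.05 and whose log2 change was larger than 0.58. The columns of no sample numbered 0.

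Here counts were scaled by TMM, filtered with filterByExpr and put through the quasi-likelihood test of edgeR 4.0.16 under R 4.3.3, with p-values adjusted by Benjamini-Hochberg over the 13971 genes kept. This differs from the study's choice of DESeq2. CPM use TMM-scaled library sizes, except for the summed marker levels, which use library totals alone. Chi-square per degree of freedom between libraries was 3.38 to 4.80 within groups and 63.8 to 70.2 between groups, so no library repeated another. At these library totals, precision is limited by the spread among 3 libraries except for genes of few counts. Alternatives used DESeq2 1.42.0, limma 3.58.1 on FPKM (log2, pseudocount 1 or 0.1), other scalings and filters, a replicate block, and each library left out. Start-site sequences and gene positions come from RefSeq on GRCh38.p14, and exon overlaps and shared stretches from GENCODE release 29, read with Python 3.11.15.

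The 10 genes, the lists and the rule for naming genes were chosen with earlier results of these data known. The rule names the 10 genes, PRKD3, PRKD2 and IRF4, each listed gene past both limits, and the gene of highest mean FPKM over the 6 libraries in each list. Genes with profiles most like a called member were to be named too, and as no member was called there were none. BIRC2, TRAF2, CHUK, IKBKG, TNIP1, ITCH, CYLD, MALT1, MYD88, PRKD1, CD3D and CD3G were named outside the rule, after their values were seen. LTBR, TNF, MAP3K14-AS1 and AC010733.2 were also named outside the rule.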

Additional observations from a re-analysis of the deposited data

How the results depend on the processing

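Over 16 alternatives, 148 of 159 log2 fold changes of the 10 genes kept their direction and side of the adjusted p limit, 7 moved past it, 4 fell short of it, and 0 reversed. Without the fold limit, calls were 3700 higher and 3877 lower over all genes, 3 and 2 among the 10, 11 and 16 among other pathway genes, and 9 and 17 among targets. With limma on log2(FPKM + 1), calls over all genes were 315 higher and 648 lower, other pathway genes called lower numbered 1 and targets called lower 7, with medians of −0.019 and −0.042. With that fit on genes reaching 1 FPKM in 3 libraries the same counts were 310, 635, 1 and 7, with a pathway median of −0.013. These fits shrink changes of low genes by construction. Leaving out each library in turn gave 1 to 4 of the 10 genes higher at the adjusted p limit (1 without shNT replicate 3), a median of the 10 from −0.012 to 0.042 (−0.011 without shNT replicate 1 and −0.012 without shPRKCN replicate 3), 3 to 5 targets called higher (5 without shNT replicate 2) and a target median from −0.32 to −0.13 (−0.13 without shNT replicate 1). In the same fits BIRC2, near 0 throughout, ran from −0.051 to 0.063 (−0.018 without shNT replicate 1, −0.051 without shPRKCN replicate 3) and TRAF2 from −0.063 to 0.0081 (without shNT replicate 3). RELB was at −0.39 and BIRC3 at −0.32 without shPRKCN replicate 2. The cause of these shifts was not tested.

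Same-numbered libraries share only a number: the correlations of their deviations from the group means were −0.042, −0.013 and 0.0038. With the replicate block, calls were 854 higher and 1463 lower over all genes, 0 among the 10, and 3 higher and 11 lower among targets, and it changed no call of the 10 genes. REL, with 286 to 397 counts, is the gene whose precision depth limits most.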
